A study of Mus musculus with 18 samples.

Results

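Heavy polysomes are the densest fractions of a sucrose gradient, where mRNAs carrying many ribosomes collect, and the ratio of an mRNA's share there to its share in the whole lysate measures how far it is loaded relative to other mRNAs. The change of that ratio under homoharringtonine (HHT) was followed here in slices of mouse hippocampus and cortex, from 12 of the 18 libraries of the study. These 12 are the input (cleared lysate) and heavy libraries of 6 lysates, joined within a lysate by genotype, treatment and replicate number. The fit that gave errors, p-values and calls used all 18 libraries, those of medium polysomes included. The 4 HHT lysates were set against the 2 vehicle lysates, with wild type (WT) and Fmr1 knockout (KO) given equal weight.

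All mice were C57BL/6N males of postnatal day 28 to 35. The KO mice carry a constitutive loss of Fmr1, which encodes the RNA-binding protein FMRP, and the WT mice do not. Slices were kept for 30 min either in DMSO, the vehicle, or in 20 µM HHT. WT HHT and KO HHT each have 2 lysates, and WT vehicle and KO vehicle have 1 each. A lysate holds 10 slices pooled from 2 to 3 mice, so single animals cannot be told apart. Slices hold neurons, glia, vessels and immune cells together, so fewer cells of a type and less RNA per cell cannot be told apart either. Heavy fractions were chosen by where FMRP appeared on an immunoblot, and each library was made from a fixed amount of RNA. Every value is therefore a share of the RNA in its own fraction, and how much RNA the heavy polysomes held was not analysed here.

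As background, HHT binds the large ribosomal subunit and stops ribosomes that have just joined a start codon, while those already elongating continue to the stop codon and leave. A coding sequence empties of ribosomes from its start onward, and a long one takes longer to empty than a short one. Ribosomes that make secreted and membrane proteins are docked on the endoplasmic reticulum (ER) by a hydrophobic stretch of the new chain, so their mRNAs sit on membranes. FMRP binds long brain mRNAs along their coding sequences and has been linked to slowed elongation.

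The hydrophobic stretches are shown first because mRNAs with and without them had different median shifts. The coding sequences of 3 of the genes described below are given around a window of 19 codons, which stands in capitals, 5′ to 3′ on the coding strand, from GENCODE M21 on mm10. It is the most hydrophobic window in Tenm2 and Hmox1 and the first past the cutoff in Efna5. Tenm2 (chr11:36006656-37235964, codons 369 to 403 of 2764) encodes a membrane-spanning adhesion protein and Efna5 (chr17:62604184-62881317, codons 1 to 27 of 228) a lipid-anchored guidance ligand with a signal peptide at its start. Hmox1 (chr8:75093621-75100589, codons 260 to 289 of 289) encodes heme oxygenase, whose membrane anchor lies at the very end of the chain. Mean hydropathy in the capitals on the Kyte-Doolittle scale, where higher is more hydrophobic and 1.6 was the cutoff, was 2.61 in Tenm2, 2.15 in Efna5 and 2.07 in Hmox1.
Tenm2: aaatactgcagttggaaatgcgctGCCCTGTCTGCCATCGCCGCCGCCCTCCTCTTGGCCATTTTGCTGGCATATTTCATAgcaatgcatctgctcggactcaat
Efna5: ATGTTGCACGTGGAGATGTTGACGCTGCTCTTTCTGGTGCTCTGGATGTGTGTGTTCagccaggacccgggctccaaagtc
Hmox1: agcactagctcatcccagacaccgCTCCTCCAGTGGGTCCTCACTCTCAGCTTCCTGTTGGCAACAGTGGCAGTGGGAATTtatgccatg

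Input and heavy libraries held 6226237 to 13834652 estimated counts each. Fmr1 stood at 13.9 to 32.2 CPM (counts scaled to a common library total) in the WT libraries and at 4.62 to 8.53 CPM in the KO libraries, in the direction of the labels. Of the tissue's markers, all 12 neuron and 10 hippocampus genes were in the table, with Camk2a at a mean of 4320 CPM. All 18 thalamus and striatum markers and 9 choroid plexus markers were also measured, along with 2 of 7 blood markers.

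One feature of the libraries bears on all results. Within a lysate, the log2 ratio of heavy to input CPM spread over genes with an SD of 0.73 in WT vehicle, 0.69 in KO vehicle, 0.57 and 0.54 in WT and KO HHT replicate 1, and 0.85 and 0.80 in WT and KO HHT replicate 2. HHT replicate 2 therefore stood apart from replicate 1 in both genotypes, and in this spread the vehicle lysates lay between them. In the lowest value of a second deposited table, described under processing, vehicle did not lie between. That value was 0.7722 to 0.9041 in HHT replicate 2 libraries and 1.004 to 1.043 in all others, vehicle included. The difference between replicates followed coding length and lay mainly in input. Replicate 2 exceeded replicate 1 in input by a median of 0.31 (log2) in both genotypes for the shortest 10% of coding sequences, and stood at -0.28 in WT and -0.26 in KO for the longest 10%. In heavy the same medians were -0.12 in WT and KO for the shortest 10%, and 0.04 in WT and 0.08 in KO for the longest. Medians by each HHT replicate alone are therefore given beside the main results on gene lists and on length. Their part in the results beyond those values was not tested.

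Values called the shift are the HHT minus vehicle difference of log2 (heavy/input), averaged over genotypes, with the standard error (SE) and the Benjamini-Hochberg adjusted p of edgeR over 13973 genes. A gene rose or fell where that p was under 0.05. The ratio rose for 1762 genes (12.6% of those tested) and fell for 2279 (16.3%). Without KO HHT replicate 2 the ratio rose for 1121 genes. With a term for the HHT replicate difference that both genotypes share, chosen after seeing the data, 2668 rose and 2746 fell. By total counts in place of TMM scaling 2621 rose and 1717 fell, so that 60.4% of called genes rose instead of 43.6%. That scaling moved the median shift of all genes from 0.01 to 0.16. The 4 HHT ratios all lay above both vehicle ratios for 3617 genes (25.9%), and all below for 3681 (26.3%). The median SE of a shift was 0.26. Errors, p-values and calls take the 4 HHT lysates as independent. The difference between HHT replicates was shared by WT and KO, so errors may be too small and calls too many.

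The largest rises included mRNAs of very long proteins. Genes for the largest rises and falls were picked only where the HHT and vehicle ratios did not overlap. That separation was therefore fixed by the choice. Birc6, a giant ubiquitin ligase that restrains cell death, had log2 ratios of heavy to input of -0.20 in WT vehicle and 0.16 in KO vehicle, 2.11 and 2.44 in the WT HHT lysates, and 1.74 and 2.59 in the KO HHT lysates. Its shift was 2.21 ± 0.31 (edgeR adjusted p = 0.000328). Dync1h1, the heavy chain of the dynein motor, went from -0.12 and 0.02 in WT and KO vehicle to 1.94 and 2.69 in WT HHT and 1.76 and 2.41 in KO HHT. Its shift was 2.21 ± 0.44 (adjusted p = 0.00273, edgeR). Herc1, another giant ubiquitin ligase, shifted by 2.13 ± 0.33, Mycbp2, a ubiquitin ligase that shapes axons and synapses, by 2.03 ± 0.35, and Trrap, a scaffold of histone acetyltransferase complexes, by 2.01 ± 0.37 (edgeR adjusted p at most 0.00159). For Birc6, Dync1h1, Herc1, Mycbp2 and Trrap the HHT minus vehicle difference was -0.40 to 0.17 in input and 1.81 to 2.38 in heavy.

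Map1b, a microtubule-associated protein of growing axons whose mRNA is a known FMRP target, had ratios of -0.66 and -0.02 in WT and KO vehicle. Under HHT they were 1.35 and 2.09 in WT and 1.32 and 2.56 in KO, with a shift of 2.12 ± 0.36 (adjusted p = 0.000971, edgeR). Replicate 2 was the higher of the pair in each genotype.

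Membrane and adhesion proteins made up 5 of the 12 largest rises, namely Tenm2, Xkr4, Grin2b, Tenm1 and Efna5. Tenm2, whose membrane span is printed above, had ratios of -0.73 and -0.65 in WT and KO vehicle, 1.24 and 2.21 in WT HHT, and 1.18 and 2.26 in KO HHT. It had the largest rise of all genes, 2.34 ± 0.57 (adjusted p = 0.00819, edgeR). Its relative Tenm1 shifted by 2.04 ± 0.67 (edgeR adjusted p = 0.0357, and 0.0591 without KO HHT replicate 2). Grin2b, the GluN2B subunit of the NMDA receptor, went from 0.11 and 0.30 in vehicle to 1.85 and 3.01 in WT HHT and 1.72 and 3.45 in KO HHT. Its shift was 2.09 ± 0.62 (adjusted p = 0.0232, edgeR), and replicate 2 was higher than replicate 1 by more than 1 log2 unit in both genotypes.

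Efna5, with its signal peptide printed above, showed that a large rise was not limited to long coding sequences. Its coding sequence has 687 nt, and its ratios were -0.98 and -0.72 in WT and KO vehicle, 0.81 and 1.25 in WT HHT, and 1.17 and 1.50 in KO HHT. The shift was 2.03 ± 0.26 (adjusted p = 0.000215, edgeR). Xkr4, a membrane protein of the lipid scramblase family, rose by 2.28 ± 0.57 from a coding sequence of 1944 nt. Raver1-fdx1l, a readthrough locus at 5.12 CPM whose reads cannot be told from those of its parent genes, was called at adjusted p = 0.0452. Its HHT ratios ran from -0.66 to 1.97, and the call was lost by RLE scaling and without WT HHT replicate 1 or KO HHT replicate 2.

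**Figure D1:**
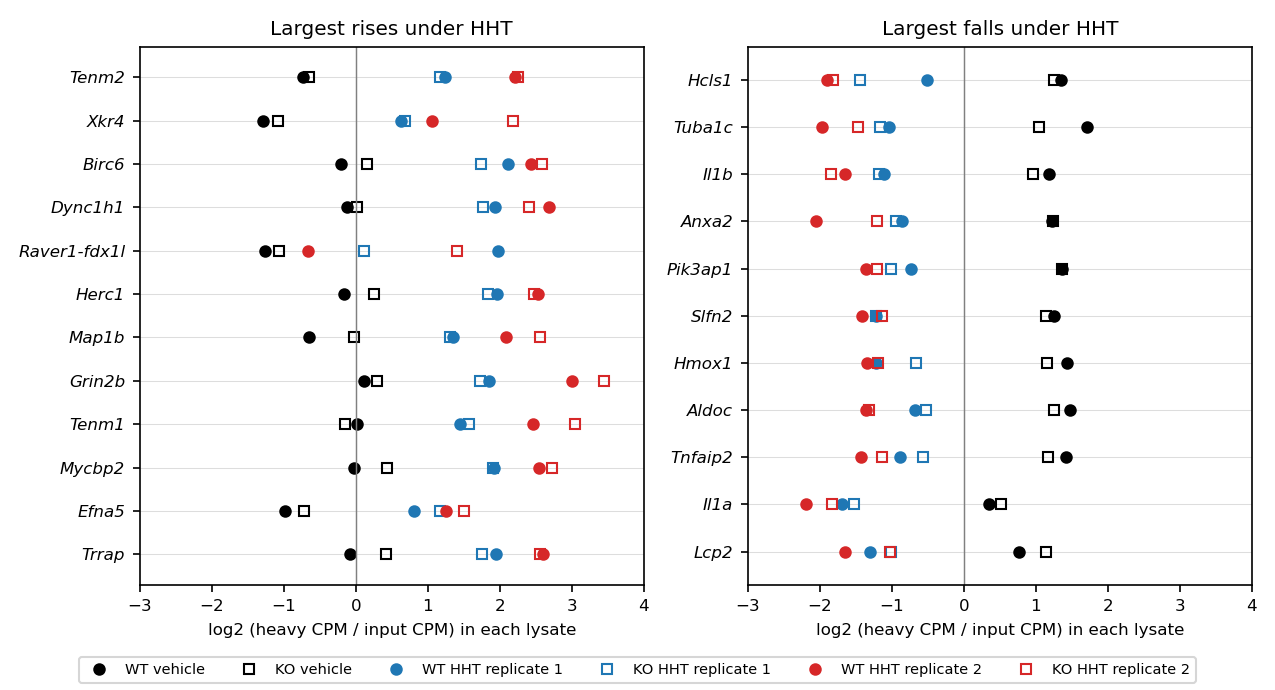
Log2 ratio of heavy to input CPM in each of the 6 lysates (points) for genes with the largest rise and the largest fall under HHT. Vehicle ratios (black) of the risers lie between -1.28 and 0.43 and those of the fallers between 0.35 and 1.71. HHT lysates (blue replicate 1, red replicate 2) lie above both vehicle ratios of the same gene in the risers and below both in the fallers. That was a condition for picking these genes.

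In the plot of named genes by lysate, each gene with a large fall had a higher share in heavy than in input in both vehicle lysates. In all 4 HHT lysates its share in heavy was the lower. These genes were picked by the difference of the same ratios, so their high vehicle ratios are part of the choice and no separate result. Several of these genes are expressed in microglia and other myeloid cells. Il1b, the cytokine interleukin-1 beta, had ratios of 1.19 and 0.97 in WT and KO vehicle, -1.11 and -1.65 in WT HHT, and -1.18 and -1.85 in KO HHT. The shift was -2.61 ± 0.38 (adjusted p = 0.000388, edgeR). Il1a, interleukin-1 alpha, shifted by -2.27 ± 0.24 (adjusted p = 0.000157, edgeR).

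Hcls1, a cortactin-like protein of blood cells, shifted by -2.84 ± 0.43, and Lcp2, an adaptor of immune receptors, by -2.26 ± 0.27. Pik3ap1, an adaptor of phosphoinositide 3-kinase in immune cells, shifted by -2.49 ± 0.27. Hcls1, Lcp2 and Pik3ap1 had edgeR adjusted p of at most 0.000554, and apart from Pik3ap1 with 14.1 CPM they held under 10 CPM on average, which limits their precision.

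Hmox1, the heme-degrading enzyme induced by oxidative stress, fell although it has a membrane anchor, which lies at its last codons as printed above. Its ratios were 1.44 and 1.15 in WT and KO vehicle, -1.22 and -1.35 in WT HHT, and -0.67 and -1.19 in KO HHT. The shift was -2.43 ± 0.23 (adjusted p = 0.000157, edgeR). Aldoc, the glycolytic enzyme aldolase C of astrocytes, was the most abundant of these genes with 529 CPM. It went from 1.48 and 1.25 in vehicle to -0.67 and -1.36 in WT HHT and -0.53 and -1.31 in KO HHT, a shift of -2.38 ± 0.30 (adjusted p = 0.000213, edgeR). Tuba1c shifted by -2.83 ± 0.27 and Tuba1a by -2.11 ± 0.23, but alpha-tubulin genes are near-identical and the division of reads between them is uncertain.

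The 33 gene lists examined are described by their counts and medians. Each count is to be read beside the 12.6% of all genes that rose and the 16.3% that fell. The lists were chosen with earlier results of these data known, so their counts and medians describe these samples and are no independent evidence. Members named below beyond the 3 with the smallest adjusted p of a list were chosen after their values were seen.

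**Figure D2:**
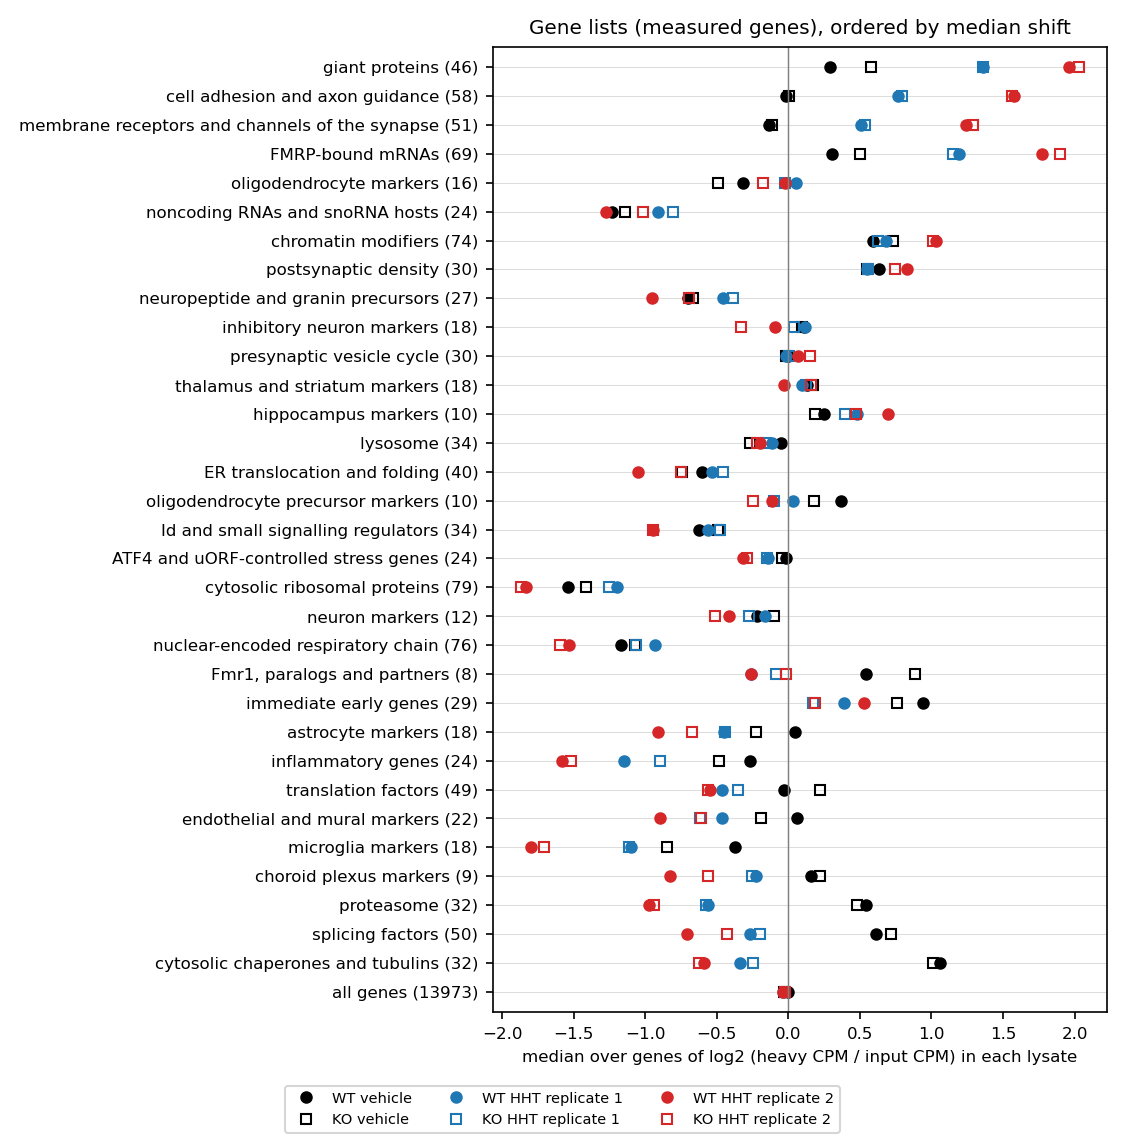
Median log2 ratio of heavy to input CPM over the measured genes of each list (number in brackets) in each of the 6 lysates, ordered by the median shift, with all genes at the bottom. In the 4 uppermost lists every HHT lysate lies above both vehicle lysates, and in the proteasome, splicing and chaperone lists every HHT lysate lies below both.

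Giant proteins of the cytoskeleton, ubiquitin ligation and calcium release had 34 of 46 members that rose and 0 that fell, with a median shift of 1.08 against 0.01 over all genes. By HHT replicate 1 alone the median was 0.80 and by replicate 2 alone 1.45. Beside those above, Macf1, a linker of actin and microtubules, had ratios of 0.19 and 0.34 in WT and KO vehicle, 1.803 and 2.179 in WT HHT and 1.70 and 2.22 in KO HHT. Its shift was 1.69 ± 0.26 (adjusted p = 0.000558, edgeR). Dync2h1, the dynein of cilia, shifted by 1.58 ± 0.25 with HHT ratios of 1.633, 1.590, 1.804 and 1.851, among which the replicates did not separate. Some giants did not pass. The spectrin Sptan1 (0.11), dystrophin (Dmd, -0.01), utrophin (Utrn, 0.17) and the nuclear envelope protein Syne2 (-0.01) were among them.

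Receptors and channels of the synapse had 25 of 51 members that rose and 0 that fell, with a median of 1.02 (0.76 by replicate 1 and 1.38 by replicate 2). Kcna2, an axonal potassium channel, had ratios of -0.47 and -0.43 in WT and KO vehicle, 0.84 and 1.50 in WT HHT, and 0.87 and 1.65 in KO HHT. Its shift was 1.63 ± 0.29 and that of the kainate receptor subunit Grik5 1.202 ± 0.21 (edgeR adjusted p at most 0.00143). Sodium channel genes Scn1a (1.71), Scn8a (1.77) and Scn3a (1.22) and calcium channel genes Cacna1e (1.73), Cacna1c (1.58) and Cacna1a (1.27) were among the risers. Subunits of one receptor family did not share a value: Grin2b stood at 2.09 and Grin2a at 1.78, which did not pass, while the obligatory NMDA receptor subunit Grin1 stood at 0.14. The calcium pumps Atp2b1 (1.30) and Atp2b2 (1.02) rose.

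Adhesion and axon guidance genes had 30 of 58 members that rose and 0 that fell, with a median of 1.07 (0.81 by replicate 1 and 1.53 by replicate 2). The protocadherin-like Fat3 shifted by 1.74 ± 0.30, the netrin receptor Unc5a by 1.33 ± 0.25 and the inhibitory synapse organizer Nlgn2 by 1.12 ± 0.24 (edgeR adjusted p at most 0.00363). The presynaptic adhesion genes Nrxn2 (1.02) and Nrxn3 also rose. Reln, the secreted guidance protein of some interneurons, went from 0.15 and 0.46 in vehicle to 1.67 and 2.58 in WT HHT and 1.69 and 2.54 in KO HHT, a shift of 1.74 ± 0.44 (adjusted p = 0.0103, edgeR).

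The shift is a difference of changes in 2 fractions, and the plot of both changes by list separates them. For receptors and channels the median HHT minus vehicle change was 1.97 in heavy and 0.95 in input, and for adhesion and guidance genes 2.14 in heavy and 1.06 in input. For giant proteins it was 1.07 in heavy and -0.15 in input. The medians of both membrane lists were thus above 0 in both fractions, and that of giant proteins in heavy only.

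**Figure D3:**
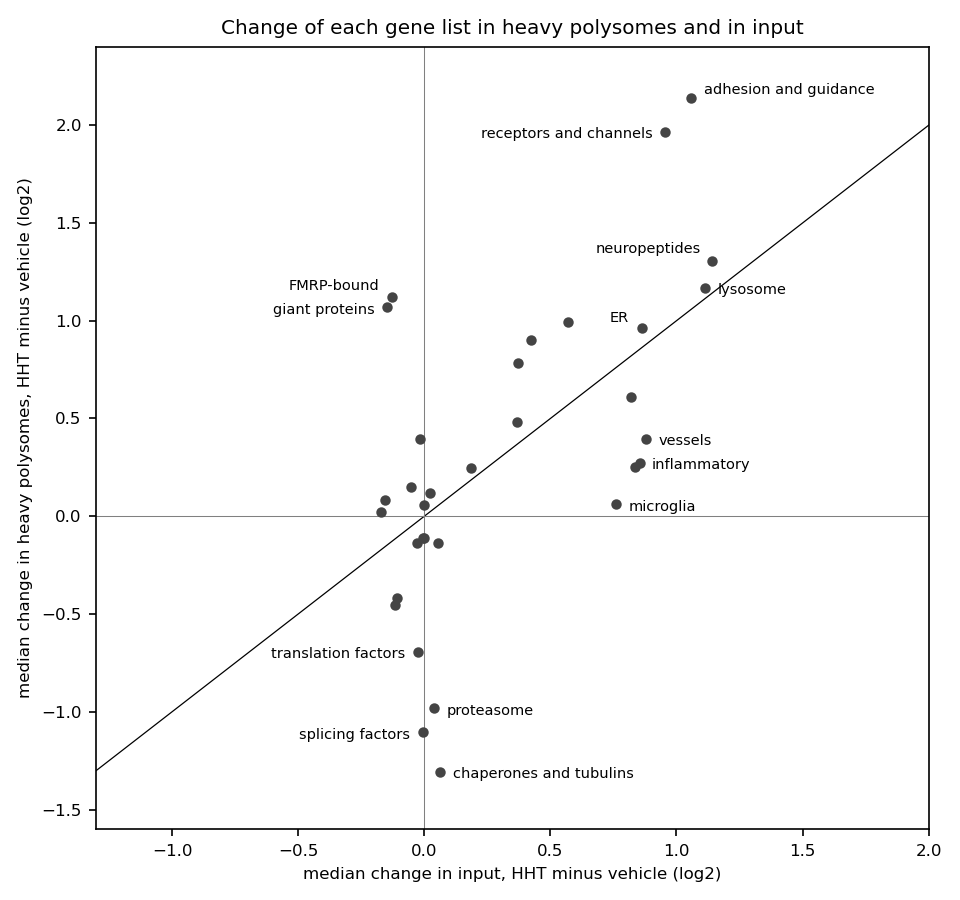
Median HHT minus vehicle change (log2) of each gene list in heavy polysomes (vertical) against that in input (horizontal), with the line where both are equal and the shift is 0. Giant proteins lie at 1.07 in heavy and -0.15 in input, chaperones and tubulins at -1.31 and 0.06, and the ER, lysosome and neuropeptide lists lie near the line at about 1 on both axes.

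Secretory lists had high median changes in both fractions and a median shift near that of all genes. Neuropeptide and granin precursors, ER translocation and folding genes and lysosomal genes had median changes of 1.30, 0.96 and 1.17 in heavy and of 1.14, 0.86 and 1.11 in input, so their median shifts were 0.11, 0.02 and 0.05. Of neuropeptide genes 2 of 27 rose and 0 fell, of ER genes 2 of 40 rose and 4 fell, and of lysosomal genes 3 of 34 rose and 2 fell, all shares below the background. By HHT replicate 1 alone the medians of the neuropeptide, ER and lysosome lists were 0.29, 0.19 and 0.13, and by replicate 2 alone -0.13, -0.24 and 0.14.

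Within the ER list the members that fell act in the cytosol or in the lumen. Srp72 and Srp54a, protein parts of the cytosolic signal recognition particle that brings ribosomes to the ER, shifted by -1.47 ± 0.19 (adjusted p = 0.000208, edgeR) and -1.15 ± 0.23 (adjusted p = 0.00252, edgeR). Srp72 went from 0.75 and 0.70 in vehicle to between -1.01 and -0.53 in the HHT lysates, with input at 0.11. Their subunit Srp68 (-0.64) and the lumenal chaperone Calr (-0.78) also fell. Ssr1, a membrane subunit of the translocon-associated complex, shifted by 0.86 ± 0.21 with HHT minus vehicle at 1.56 in heavy and 0.70 in input. The receptor subunit Srprb (0.70) was the other riser.

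Among lysosomal genes the cathepsin Ctsl fell, with a larger HHT minus vehicle difference in input than in heavy. Ctsl stood at 0.62 in heavy and 1.83 in input, a shift of -1.21 ± 0.25 (adjusted p = 0.00349, edgeR). Of the neuropeptide genes, the tachykinin precursor Tac1 (1.04 ± 0.34, adjusted p = 0.0376, edgeR) and the receptor Npy1r (0.87 ± 0.29, adjusted p = 0.0381) rose. Tac1 lost its call in 10 of 16 other settings and Npy1r in 6, among them DESeq2 for both.

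The lowest median shift was that of chaperones and tubulins. Chaperones and tubulins had 29 of 32 members that fell and 0 that rose, with a median of -1.38 (-1.26 by replicate 1 and -1.45 by replicate 2). Cct8, a subunit of the chaperonin that folds actin and tubulin, went from 1.11 and 1.00 in WT and KO vehicle to -0.83 and -1.19 in WT HHT and -0.74 and -0.99 in KO HHT. The shift was -2.01 ± 0.20 (adjusted p = 0.000157, edgeR), and Cct6a of the same complex stood at -2.01 ± 0.23.

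Proteasome genes had 27 of 32 members that fell and 0 that rose, with a median of -1.05 (-0.83 and -1.18 by replicates 1 and 2). Psmd14, the deubiquitinase of the regulatory particle, had vehicle ratios of 0.85 and 1.02. Its HHT ratios were -0.77 and -0.65 in WT and -0.42 and -0.53 in KO, with a shift of -1.53 ± 0.17 (adjusted p = 0.000157, edgeR). The ATPase subunits Psmc2 (-1.78 ± 0.22) and Psmc3 (-1.45 ± 0.19) fell with it.

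Of splicing factors 33 of 50 fell and 2 rose, with a median of -1.10 (-0.99 and -1.163 by replicates). Hnrnpk, a nuclear RNA-binding protein, went from 1.32 and 1.30 in vehicle to -0.56 and -0.78 in WT HHT and -0.41 and -0.77 in KO HHT, a shift of -1.95 ± 0.17 (adjusted p = 0.000157, edgeR). Hnrnpa2b1 fell too (-1.96 ± 0.22). The risers were the long splicing genes Prpf8 (1.45) and Srrm2 (1.37).

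Translation factors had 27 of 49 members that fell (55.1%, against 16.3% of all genes) and 4 that rose (8.16%, below the 12.6% of all genes). Their median was -0.60 (-0.44 and -0.59 by replicates). Eef1a2, the neuronal elongation factor, was abundant at 1710 CPM and had ratios of 1.19 and 1.18 in vehicle against -0.04, -0.12, 0.01 and -0.15 in the HHT lysates. The shift was -1.26 ± 0.17 (adjusted p = 0.000255, edgeR). Initiation factor 3 subunits Eif3d (-1.55 ± 0.19) and Eif3m (-1.63 ± 0.22) fell, and the largest subunit Eif3a stood at -0.11, which did not pass. The 4 risers were Eif4ebp2 (1.01), a repressor of cap-dependent initiation, Eif4g3 (0.78), Eif1b (0.68) and Eif4g2 (0.60).

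The cytosolic ribosomal proteins had 5 of 79 members that fell and 1 that rose, both shares below the background, with vehicle ratios already low at medians of -1.54 in WT and -1.41 in KO. Their median shift was -0.13, or -0.14 relative to the median of all genes by TMM, RLE and total counts alike. By HHT replicate 1 alone it was 0.23 and by replicate 2 alone -0.38. Rpl6 (-0.94 ± 0.22), Rpl3 (-0.74 ± 0.19) and Rpl7 (-0.73 ± 0.22), which have among the longer coding sequences of the family, fell, but limma on the per-lysate ratios called none of the 3.

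Respiratory chain genes had 16 of 76 members that fell (21.1%, against 16.3% of all genes) and 0 that rose. Their median shift was -0.19 (0.11 by replicate 1 and -0.43 by replicate 2). Those that fell included Ndufs1, the largest subunit of complex I. Atp5b, the catalytic subunit of ATP synthase, went from 1.199 and 1.13 in vehicle to -0.48 and -0.91 in WT HHT and -0.44 and -0.89 in KO HHT, a shift of -1.87 ± 0.22 (adjusted p = 0.000164, edgeR). Atp5a1 (-1.81 ± 0.21) and the succinate dehydrogenase flavoprotein Sdha (-1.42 ± 0.16) also fell, while small subunits such as Cox4i1 (0.00), Cox7a2 (0.06) and Ndufb7 (0.24) did not pass.

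Synaptic vesicle and postsynaptic genes moved in both directions. In the vesicle cycle list 7 of 30 rose (23.3%) and 8 fell (26.7%), against 12.6% and 16.3% of all genes. The median was 0.10 (0.04 and 0.19 by replicates). Nsf, the ATPase that takes apart fusion complexes, went from 1.349 and 1.156 in vehicle to between -0.38 and -0.24 in the HHT lysates, a shift of -1.55 ± 0.15 (adjusted p = 0.000157, edgeR). Dnm1, the membrane-cutting dynamin, shifted by -0.96 ± 0.17, and Syn1 (-1.09) and Syn2 (-0.88) also fell. The risers were led by vesicle membrane proteins, Sv2b (1.22), Syt1 (1.18) and Syt11 (0.89). Cplx2, a small soluble regulator of fusion with a coding sequence of 405 nt, rose by 0.85 ± 0.15 from -0.72 and -0.54 in vehicle to 0.17, 0.18, 0.30 and 0.21 under HHT (adjusted p = 0.00125, edgeR).

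In the postsynaptic density 11 of 30 rose and 5 fell, the latter near the 16.3% of all genes, with a median of 0.20 (0.11 and 0.32 by replicates). All 3 Homer scaffolds rose, none of which has a predicted hydrophobic segment. Homer1 went from -0.87 and -0.46 in vehicle to 0.52 and 0.53 in WT HHT and 0.89 and 1.24 in KO HHT, with a shift of 1.45 ± 0.21 (adjusted p = 0.000476, edgeR). Homer1 has short and long isoforms, which gene counts do not separate. Agap2, a GTPase-activating protein, rose by 0.95 ± 0.18, and the scaffold Dlg4 (0.67) also rose. Camk2a, the kinase of synaptic plasticity, fell by 0.81 ± 0.19 on the log2 scale (adjusted p = 0.00647, edgeR) from 1.39 and 1.19 to values between 0.26 and 0.81, so it remained above its input share.

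Immediate early genes, which neurons switch on within minutes, had 12 of 29 members that fell (41.4%, against 16.3% of all genes). Another 3 rose (10.3%, below the 12.6% of all genes). The median of the list was -0.35 (-0.40 and -0.29 by replicates). The transcription factor Klf10 fell by 1.61 ± 0.18 on the log2 scale and Egr1 by 1.10 ± 0.16 (edgeR adjusted p at most 0.000371). Egr1 went from 1.10 and 0.89 in vehicle to 0.01, 0.03, -0.09 and -0.36 under HHT. Junb (-0.67), Npas4 (-0.70), Fos (-0.64) and Arc (-0.45) fell, and Klf4 (0.82), Btg2 (0.62) and Homer1 rose.

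A further list held genes with upstream open reading frames, which can keep ribosomes off the main coding sequence. It also held genes under ATF4, the factor of the integrated stress response. Of 24 such genes 4 fell and 3 rose, shares near the 16.3% and 12.6% of all genes, with a median of -0.11 (-0.22 and -0.05 by replicates), or -0.13 relative to all genes under each of the 3 scalings. The 4 that fell were the serine and asparagine synthesis enzymes Phgdh (-1.87 ± 0.25), Asns (-1.52 ± 0.20), Psat1 (-1.51 ± 0.23) and Shmt2 (-1.48). Atf4 itself (0.30), Ddit3 (0.38) and Atf5 (0.50) did not pass, while Ppp1r15b (0.77), Slc35a4 (0.55) and Vldlr (1.10) rose.

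RNAs without a known coding sequence were measured as well. Of 24 noncoding RNAs and small nucleolar RNA hosts 4 rose (16.7%, near the 12.6% of all genes) and 0 fell (against 16.3%). Their median shift was 0.38 (0.58 and 0.27 by replicates). Peg13 went from -0.26 and -0.09 in vehicle to 0.71, 0.97, 0.72 and 0.73 under HHT, a shift of 0.96 ± 0.14 (adjusted p = 0.000498, edgeR). Meg3, a nuclear RNA that stayed below its input share in every lysate, went from -2.46 and -2.47 to values between -1.94 and -1.15, with a shift of 0.98 ± 0.31 (adjusted p = 0.0279, edgeR). Meg3 lost its call by limma and without KO HHT replicate 1. The abundant nuclear RNA Malat1 (0.37) did not pass. Among all 99 annotated long intergenic noncoding RNAs 22 rose (22.2%) and 0 fell, with a median of 0.58. Their median ratio was -0.84 and -0.63 in WT and KO vehicle, -0.28 and -0.37 in WT HHT, and -0.09 and -0.31 in KO HHT.

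FMRP-bound mRNAs, a selection from published crosslinking in mouse brain, had 41 of 69 members that rose and 1 that fell, with a median of 0.88 (0.60 by replicate 1 and 1.26 by replicate 2). Of them 55 lie in the longest 10% of coding sequences, and the median coding length of the list was 6168 nt. All genes with coding sequences of 6000 to 8000 nt had a median shift of 0.50, and those over 10000 nt of 1.07. The lone faller was Camk2a. Kmt2c, a histone methyltransferase that is both FMRP-bound and a chromatin modifier, shifted by 1.51 ± 0.23 (adjusted p = 0.000532, edgeR).

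The list medians of the FMRP-bound mRNAs were 1.00 in WT and 0.84 in KO. In vehicle their median ratio was 0.30 in WT and 0.50 in KO, with 1 lysate each. Under HHT the WT lysates stood at 1.19 and 1.77 and the KO lysates at 1.153 and 1.898, so that the genotypes overlapped and the replicates did not.

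Chromatin modifiers moved in both directions. In this list 18 of 74 rose (24.3%, against 12.6% of all genes) and 9 fell (12.2%, against 16.3%). The median was 0.27, with 0.06 by replicate 1 and 0.47 by replicate 2. Ash1l, a histone H3 methyltransferase, rose by 1.598 ± 0.27 (adjusted p = 0.00108, edgeR), and the methyltransferases Kmt2a (1.51) and Kmt2d (1.11), the acetyltransferases Ep300 (0.98) and Crebbp (0.80) and the remodeller Chd8 (0.88) also rose. The histone deacetylases Hdac1 (-1.58) and Hdac2 (-1.17 ± 0.20) and the demethylase Kdm1a (-0.88) fell. Setd2, which places trimethylation on lysine 36 of histone H3, had ratios of 0.24 and 0.75 in WT and KO vehicle, 0.76 and 1.12 in WT HHT, and 0.64 and 1.38 in KO HHT. These overlapped, and the shift of 0.49 ± 0.22 did not pass (adjusted p = 0.112, edgeR).

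Of Fmr1, its paralogs and partners 4 of 8 fell and 0 rose. Fmr1 had ratios of -0.01 in WT vehicle and -0.80 and -0.68 in WT HHT, and its shift over both genotypes was -0.21 ± 0.36 (adjusted p = 0.702, edgeR). Its paralog Fxr1 fell by 0.91 ± 0.22 on the log2 scale (adjusted p = 0.00831, edgeR), from 0.50 and 0.39 to between -0.72 and -0.31. Fxr2 stood at -0.48 ± 0.15 (adjusted p = 0.0272, edgeR) and lost its call in 9 of 16 other settings, the lysate block among them (adjusted p = 0.0953). The interacting proteins Nufip1 (-1.56 ± 0.20) and Caprin1 (-1.02 ± 0.15) fell, and Cyfip1 (-0.12), Cyfip2 (-0.12) and Nufip2 (0.06) did not pass.

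Cell type markers were counted as well, and their part in the results above was not tested. Microglia markers had 8 of 18 members that fell and 0 that rose, with a median of -0.83 (-0.38 by replicate 1 and -1.02 by replicate 2). Their median change was 0.06 in heavy and 0.76 in input. Ctss, a lysosomal protease of microglia, stood at -0.26 in heavy and 1.21 in input, with a shift of -1.47 ± 0.32 (adjusted p = 0.00441, edgeR). P2ry12, the purine receptor of resting microglia, stood at -1.09 ± 0.31 (adjusted p = 0.0179, edgeR) and lost its call in 5 of 16 other settings, the lysate block among them (adjusted p = 0.0621). Inflammatory genes had 8 of 24 members that fell and 0 that rose, with a median of -0.57 (-0.41 and -0.79 by replicates), 0.27 in heavy and 0.85 in input. The NF-kappaB inhibitors Nfkbia (-1.53 ± 0.22) and Tnfaip3 (-1.28 ± 0.17) fell, with input at 0.28 and 0.19.

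Vessel markers had 4 of 22 members that fell, near the 16.3% of all genes, and 0 that rose, with a median shift of -0.60 (-0.48 and -0.71 by replicates) and medians of 0.39 in heavy and 0.88 in input. Vtn, vitronectin, stood at 0.75 in heavy and 2.36 in input. Astrocyte markers had 6 of 18 members that fell and 1 that rose, with a median of -0.41 (-0.17 and -0.60 by replicates). Clu, clusterin, stood at 0.43 in heavy and 1.403 in input, a shift of -0.97 ± 0.23, and the intermediate filament Gfap at -1.22 in heavy and -0.02 in input, a shift of -1.205 ± 0.25 (edgeR adjusted p at most 0.00725 for both). The call of Clu was lost by limma, and that of Vtn without KO HHT replicate 2.

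Of 16 oligodendrocyte markers 3 rose and 3 fell (18.75% each, against 12.6% and 16.3% of all genes). Their median was 0.39 (0.43 and 0.32 by replicates). Among those called were the membrane protein Tspan2 (1.21 ± 0.20) and the cytosolic enzymes Cnp (-0.84 ± 0.17) and Aspa (-1.19 ± 0.29). Precursor markers had 3 of 10 that fell, including the transcription factors Sox10 (-1.403 ± 0.20) and Olig2 (-0.79 ± 0.18), and 1 that rose. Neuron markers had 4 of 12 that fell and 1 that rose, the fallers led by the neurofilaments Nefl (-1.45 ± 0.17) and Nefm (-1.19 ± 0.22). Of inhibitory neuron markers 4 of 18 fell (22.2%, against 16.3% of all genes), Calb2 (-1.61 ± 0.28) and Gad2 (-0.81 ± 0.18) among them, and Reln alone rose. Thalamus and striatum markers had 3 of 18 in each direction (16.7%), hippocampus markers 1 of 10 in each (10%), and choroid plexus markers 1 of 9 that fell (11.1%). These shares lie near or below the 12.6% that rose and 16.3% that fell of all genes, and rest on few genes. Both measured blood markers, Hba-a2 (-0.09 ± 0.93) and Hbb-bs (-1.02 ± 0.95), had wide errors.

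The small signalling list of Id, Hes and other regulatory genes had 6 of 34 members that fell and 0 that rose, the first near the 16.3% of all genes, with a median of -0.11 (0.09 and -0.25 by replicates), or -0.12 relative to all genes under each scaling. Rhoa fell by 1.23 ± 0.23 on the log2 scale and the repressor Hes1 by 1.04 ± 0.21 (edgeR adjusted p at most 0.00309). The inhibitors of differentiation Id1 (-0.38), Id2 (-0.12) and Id3 (-0.26) did not pass.

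Across the table, 13460 genes were matched to a coding sequence, and the shift varied with its length in a U shape. Genes are not independent replicates, so these values carry no test. Coding sequences of at most 500 nt had a median shift of 0.18, those of 1500 to 2000 nt of -0.21, those of 6000 to 8000 nt of 0.50 and the 72 over 10000 nt of 1.07. Among the 72 longest 62.5% rose and 0 fell. In vehicle, the median ratio of heavy to input went from -1.01 at up to 500 nt to 0.38 at 2000 to 3000 nt and 0.26 over 10000 nt, and under HHT from -0.83 to 0.26 and 1.28. The order of the longest mRNAs by ratio was thus flat in vehicle and steep after the drug.

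The short end of that curve depended on the replicate. By HHT replicate 1 the median up to 500 nt was 0.41 and by replicate 2 it was -0.01. At 1500 to 2000 nt both gave nearly one value, -0.20 and -0.18, and over 10000 nt they gave 0.82 and 1.35. The longest 10% exceeded the rest by 0.28 in all lysates, by 0.06 with replicate 1 alone and by 0.51 with replicate 2 alone.

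**Figure D4:**
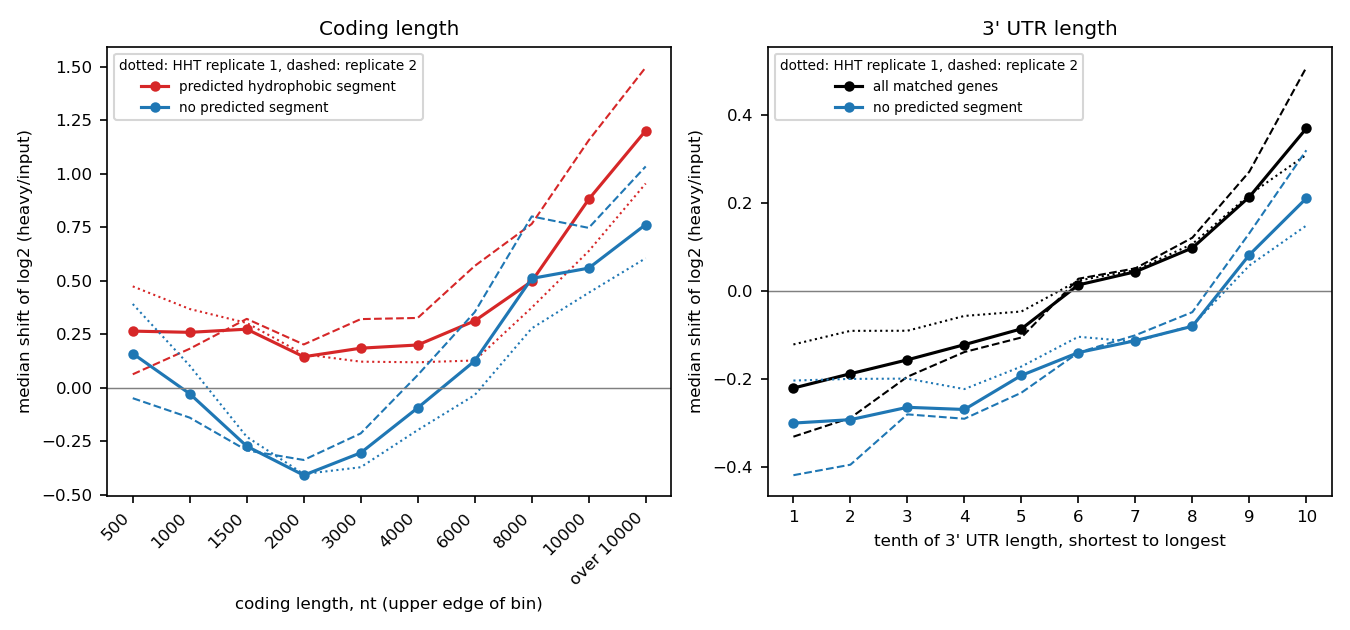
Median shift of log2 (heavy/input) by bin of coding length, for genes with and without a predicted hydrophobic segment (left), and by bin of 10% of genes in 3′ UTR length, for all matched genes and those without a segment (right). Solid lines use all HHT lysates, dotted lines replicate 1 and dashed lines replicate 2, and coding sequences without a segment are lowest at 1500 to 2000 nt with -0.41.

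Genes with a predicted hydrophobic segment, 4855 of those matched, had a median shift of 0.25, and the 8605 without had -0.13. By HHT replicate 1 these were 0.26 and -0.10, and by replicate 2 0.28 and -0.15, so this contrast was nearly the same in both. Of genes with a segment 18.4% rose and 7.56% fell, and of genes without 9.32% rose and 22.02% fell. At 1500 to 2000 nt the medians were 0.14 with and -0.41 without a segment, and at up to 500 nt 0.26 and 0.16. A segment is a prediction from hydropathy and does not by itself mark a membrane or secreted protein. Of giant proteins 27 of 46 had one, Birc6 and Macf1 among them, and of cytosolic ribosomal proteins 4 of 79. The class also differs in length, with a median coding sequence of 1548 nt against 1362 nt without a segment.

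The median also varied with the position of the segment. Genes with a segment within the first 40 residues, where a signal peptide lies, numbered 1716 and had a median of 0.33 (0.37 and 0.35 by replicates), with changes of 0.98 in heavy and 0.64 in input. Whether these segments are signal peptides was not tested, and the small signalling gene Rhoa is in this class. Genes with an internal segment numbered 2808 with a median of 0.21 (0.19 and 0.28 by replicates). The 312 genes whose only segment lies in the last 60 residues, like that of Hmox1, had a median of 0.06 (0.18 and 0.01 by replicates), with changes of 0.14 in heavy and 0.01 in input.

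Among the 1693 risers with a coding sequence, 52.6% had a segment and 16.0% lay in the longest 10%, and 40.9% had neither. Among the 2262 fallers, 16.2% had a segment and 1.68% lay in the longest 10%, against 36.1% and 10.0% of all matched genes. Of the fallers 82.7% had neither, and their median coding length was 1548 nt.

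A further feature, chosen after these values were seen, was the length of the 3′ UTR of the same transcript. The median shift was higher in each successive 10% of genes, from -0.22 in the shortest, of up to 187 nt, to 0.37 in the longest, of at least 3435 nt. In the shortest 10% 3.98% of genes rose and 22.7% fell, and in the longest 29.3% rose and 5.81% fell. Genes without a hydrophobic segment showed the same order of end points, from -0.30 to 0.21. For these genes the end points were -0.20 and 0.15 by HHT replicate 1 and -0.42 and 0.32 by replicate 2. Over all matched genes they were -0.12 and 0.31 by replicate 1 and -0.33 and 0.51 by replicate 2. In vehicle the median ratio of heavy to input was -0.06 in the shortest 10% and -0.02 in the longest, and under HHT it was -0.41 and 0.33. Efna5 with 3158 nt, Homer1 with 1561 nt and Cplx2 with 4208 nt of 3′ UTR are short coding sequences among the risers, and Tuba1a with 197 nt and Psmc3 with 68 nt are fallers.

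Each genotype was also tested alone, with 2 HHT lysates against 1 vehicle lysate, whose spread is assumed to be that of the HHT groups. In WT 592 genes rose (4.24%) and 1114 fell (7.97%), and in KO 392 rose (2.81%) and 999 fell (7.15%). With the lysate as a block 600 fell in KO. With the shared HHT replicate term 1646 rose and 1826 fell in WT, and 1574 rose and 1792 fell in KO. These counts rest on HHT replicate 2. Without WT HHT replicate 2, 0 genes were called in WT in either direction, and without KO HHT replicate 2, 0 in KO. Without KO HHT replicate 1 490 genes fell in KO, and without KO HHT replicate 2 382 genes rose in WT.

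The shifts of WT and KO, which share no library, had a Pearson correlation of 0.786 and a Spearman correlation of 0.778 across genes. The difference between HHT replicates was shared by WT and KO and enters both shifts, so they may not be independent. Its part in the correlations and in the counts of shared signs below was not tested. Of 1706 genes called in WT 1703 had the same sign in KO, and of 1391 called in KO 1388 had the same sign in WT. Called in both were 282 risers and 799 fallers, and 0 genes were called with opposite signs. The plot of both genotypes shows the called genes along the diagonal.

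**Figure D5:**
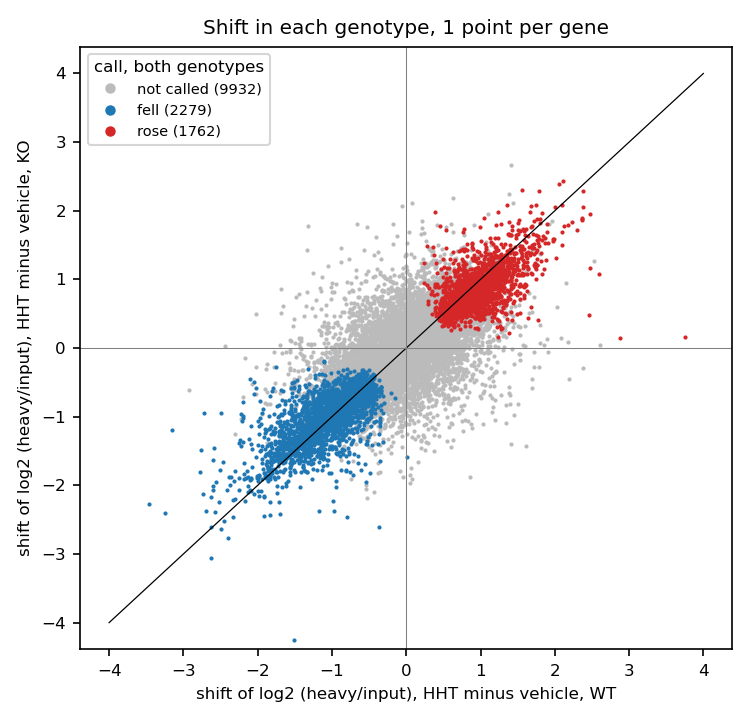
Shift of log2 (heavy/input), HHT minus vehicle, in KO (vertical) against WT (horizontal), 1 point per gene, with the line of equal shifts. Genes that rose over both genotypes (1762, red) and fell (2279, blue) lie along the line, with a Pearson correlation over all genes of 0.786. The difference between HHT replicates was shared by WT and KO and enters both axes.

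The difference of the shift between genotypes was tested directly. It passed for 0 genes (0% of those tested) by edgeR, with 84 at unadjusted p under 0.05. With the lysate block, limma and DESeq2 the calls were also 0, with 60, 301 and 10 genes at unadjusted p under 0.05. The replicate difference shared by WT and KO stays in the error of these fits. With a term for it the calls were 0 and 161 genes had an unadjusted p under 0.05, at a median SE of the difference of 0.43. Without that term the median SE was 0.51, against 0.26 for the shift itself. Birc6 had a shift of 2.47 ± 0.44 in WT and 1.95 ± 0.43 in KO, a difference of -0.52 ± 0.61. Tuba1c had -3.24 ± 0.39 in WT and -2.41 ± 0.38 in KO, a difference of 0.83 ± 0.54. These 0 calls do not show that the genotypes respond alike.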

How the data were processed

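Expected counts, estimated per gene and with no value whole within 1e-06, were deposited by the authors for 13973 genes in 18 libraries. A second deposited table is a score: its header says TPM, yet 10 of its 18 columns sum to over 1000000, so it served only to check libraries. Per the submitters' processing notes, the tools were Bowtie2 2.1.0, Trimmomatic 0.32, DESeq2 1.16.1 and RSEM 1.2.11, with build mm10 and no roles stated. The rule behind the 13973 genes and any batch adjustment are unknown here. The lowest score was 0.7722 to 0.9041 in HHT replicate 2 libraries and 1.004 to 1.043 in the others.

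After rounding, the 12 group means of all 18 libraries, medium polysomes included, were fitted under R 4.3.3 by the quasi-likelihood test of edgeR 4.0.16. The settings were TMM scaling, 6 residual and 7.36 prior degrees of freedom, 2-sided p and Benjamini-Hochberg at 0.05. SE is the shift divided by the square root of F. Each lone vehicle library takes its spread from the replicated HHT groups. Per-lysate ratios use TMM-scaled CPM with a prior count of 2, which draws low genes toward 0. Input and heavy of 1 number come from 1 lysate by design, and their deviations between HHT replicates correlated at 0.107 in WT and 0.105 in KO over 11123 genes. Alternatives were RLE, total counts, other filters, fewer libraries, a lysate block, a term per fraction for HHT replicate 2 minus 1 shared by WT and KO (3 residual degrees of freedom, chosen after seeing the data), each lysate left out, limma 3.58.1 and DESeq2 1.42.0.

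The members and lists were chosen with earlier results of these data known. Genes named are the 12 largest rises and 12 largest falls among called genes of at least 5 CPM whose HHT and vehicle lysates do not overlap, without predicted models, up to 3 per list by smallest adjusted p, and Fmr1, Fxr1, Fxr2 and Setd2; others were chosen after their values were seen. Some genes that this rule names are not reported here. Hydropathy used a mean of 1.6 over 19 residues in translations of GENCODE M21 coding sequences, in place of the RefSeq proteins planned. The fixed length bins, the class of segments in the last 60 residues, the 3′ UTR bins of 10% of genes and the HHT replicates taken apart for them were chosen after seeing the data. On simulated counts for the shift over 13971 genes, 49 of 50 genes were recovered at 4-fold in each direction. At 2-fold it was 22 of 50 lower and 28 of 50 higher, and 9 of 13771 unchanged genes were called. The simulated libraries were independent and lacked the HHT replicate difference shared by WT and KO. These numbers check the fit and do not measure false calls in the real libraries.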

Additional observations from a re-analysis of the deposited data

How the results depend on the processing

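In the shift over both genotypes, genes called higher numbered 3281 with HHT replicate 1 lysates only and 2661 with HHT replicate 2 only, both in a fit with the lysate as block that takes WT and KO as replicates, and 1121 to 1714 with 1 HHT lysate left out, the lowest without KO HHT replicate 2. With the HHT replicate difference shared by WT and KO as a term, a replicate block across genotypes, genes called higher numbered 2668 over both genotypes, 1646 in WT and 1574 in KO, and genes called lower 1826 in WT and 1792 in KO. Over both genotypes, genes called lower stayed within 1.5 times of the 2279 reported in all of these settings, with 1700 to 1997 when 1 lysate was left out. In WT, genes called higher numbered 1039 by total counts, 290 in a fit of the 12 input and heavy libraries and 0 to 592 with 1 lysate left out, and genes called lower 567 in the 12 libraries and 0 to 835. In KO, genes called higher numbered 256 by RLE, 757 by total counts, 43 in the 12 libraries, 101 by limma and 0 to 292 with 1 lysate left out, and genes called lower 334 in the 12 libraries, 600 with the lysate as replicate block, 455 by limma and 0 to 850. The lysate block, whose pairing comes from the shared lysate, ended the calls of Fxr2, P2ry12, Tac1 and Neurod6 among the named genes and moved no other count of calls by over 1.5 times. The difference between genotypes gave 0 calls in every setting run. Genes with a hydrophobic segment exceeded those without by 0.39 in the median shift, by 0.27 and 0.46 at hydropathy means of 1.4 and 1.8, and by 0.47 at a mean of at least 5 CPM. The longest 10% of coding sequences exceeded the rest by 0.28. That difference was 0.06 with HHT replicate 1 only and 0.51 with HHT replicate 2 only. With 1 lysate left out it ran from 0.17 to 0.40. At a mean of at least 5 CPM no blood marker remained, so that median has no value there. The cause of these moves was not tested. Of 116 named genes 108 were called, and 105 of these had a value in all 16 alternatives. Of the 105, 88 were called in each, and 0 called genes reversed. Low genes such as Hcls1 at 5.28 CPM have few counts behind each ratio, and intervals cover counting and replicate spread of the HHT lysates only.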
